A study of Mus musculus with 11 samples.

Results

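The T cell receptor variable (V) genes described here are all rows of the deposited count table that carry the biotype TR_V_gene. These were 142 of 46078 genes, and they lie in 4 receptor loci. The alpha locus held 110 (Trav, chromosome 14), the beta locus 21 (Trbv, chromosome 6), the gamma locus 6 (Trgv2 and 5 genes named Tcrg-V, chromosome 13) and the delta locus 5 (Trdv, chromosome 14). The row B230359F08Rik was placed among the Trav genes because RefSeq lists it as Trav13-5.

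The libraries come from wild-type mice with glomerulonephritis raised against myeloperoxidase (MPO), the neutrophil enzyme that is a target of ANCA autoantibodies. Per the labels, mice received recombinant mouse MPO as an immunogen, then a low dose of sheep globulin directed at mouse basement membrane, and kidney T cells were sorted on day 21. All 4 groups share this treatment, no untreated kidney is among the samples, and an age is not given in the labels used here. The sort separated CD4+CD127-PD-1+ cells (n = 2), CD4+CD127+PD-1- cells (n = 3), CD8+CD127-PD-1+ cells (n = 3) and CD8+CD127+PD-1- cells (n = 3). CD127 is the interleukin-7 receptor alpha chain and PD-1 is an inhibitory receptor of stimulated T cells. Cells of 3 mice were pooled for each sort, so every spread and p-value below measures differences among pools, and none among single animals. The labels state that 1 more CD4+CD127-PD-1+ sample did not pass quality control, and it was not analysed here.

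In each developing T cell, V segments are joined to J segments (and D segments in beta and delta chains) by recombination of the genomic DNA. Once this joining is complete, all daughters of a cell carry the same joined genes. The V segment encodes the loops that mostly touch the MHC molecule, and the joint forms the third loop, CDR3, which mostly touches the peptide. A population of many unrelated clones uses many V genes, while the daughters of 1 cell share the V genes which that cell joined. Counts per V gene describe this usage only by V segment, since the table holds no joints and no pairing of alpha with beta chains.

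The sequences below are the 3′ ends of the V segments on which the results turn, 60 bases each, from GENCODE M21 transcripts on GRCm38. The capitals mark the in-frame codon of the conserved cysteine at which CDR3 begins, so the bases after it are the germline start of CDR3. The first set holds the most used beta gene, Trbv13-2, and the 5 beta genes with a high share in a single library.
Trbv13-2 (chr6:41121773-41121832, plus strand): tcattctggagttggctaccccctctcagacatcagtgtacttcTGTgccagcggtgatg
Trbv15 (chr6:41141599-41141658, plus strand): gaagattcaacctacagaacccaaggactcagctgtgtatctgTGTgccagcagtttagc
Trbv30 (chr6:41281931-41281990, plus strand): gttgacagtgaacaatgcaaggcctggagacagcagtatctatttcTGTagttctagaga
Trbv2 (chr6:41047936-41047995, plus strand): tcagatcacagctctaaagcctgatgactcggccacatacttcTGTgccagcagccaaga
Trbv20 (chr6:41188918-41188977, plus strand): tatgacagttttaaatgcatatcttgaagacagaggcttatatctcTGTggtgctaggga
Trbv19 (chr6:41178989-41179048, plus strand): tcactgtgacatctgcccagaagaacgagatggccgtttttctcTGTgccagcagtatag

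The second set holds some of the alpha genes with a high share in single libraries. With Trav14d-1 and Trav14n-1 added, it shows how alike alpha segments can be.
Trav16 (chr14:53743646-53743705, plus strand): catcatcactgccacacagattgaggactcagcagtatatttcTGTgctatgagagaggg
Trav16n (chr14:53351562-53351621, plus strand): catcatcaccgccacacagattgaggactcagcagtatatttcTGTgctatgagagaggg
Trav8d-2 (chr14:53042832-53042891, plus strand): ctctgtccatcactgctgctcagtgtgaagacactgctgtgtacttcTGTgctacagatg
Trav6-1 (chr14:52638903-52638962, plus strand): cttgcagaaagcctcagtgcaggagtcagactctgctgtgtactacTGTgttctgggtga
Trav7-5 (chr14:53531254-53531313, plus strand): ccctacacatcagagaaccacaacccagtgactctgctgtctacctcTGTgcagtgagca
Trav7-1 (chr14:52655269-52655328, plus strand): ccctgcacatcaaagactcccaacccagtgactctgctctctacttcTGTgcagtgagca
Trav14d-1 (chr14:52856107-52856166, plus strand): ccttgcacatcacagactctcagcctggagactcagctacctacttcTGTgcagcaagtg
Trav14n-1 (chr14:53167119-53167178, plus strand): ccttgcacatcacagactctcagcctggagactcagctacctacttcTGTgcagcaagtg

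Trav16 and Trav16n differ at 1 of these 60 bases and at 6 of 412 aligned transcript bases. Trav7-5 and Trav7-1, which belong to the same family, differ at 7 of the 60. Trav14d-1 and Trav14n-1 are identical over all 415 bases of their transcripts, and both have 0 counts in every library.

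The libraries held 10572505 to 16057310 counts each, of which 1141 to 2398 fell on Trav genes, 1087 to 1965 on Trbv, 16 to 371 on Trgv and 20 to 49 on Trdv. Trav and Trbv together made up 131 of the 142 genes. Of the 142 genes, 35 had no count in any library, all of them Trav genes, and 81 passed the filter on low counts (55 Trav, 20 Trbv, 4 Trgv and 2 Trdv). The labels were checked on the sort markers. Cd4 had 503 to 680 CPM (counts scaled to library size) in CD4 and 1.19 to 9.71 CPM in CD8 libraries, and Cd8a had at most 1.82 CPM in CD4 and 470 to 754 CPM in CD8 libraries. Il7r, which encodes CD127, had 13.8 to 27.2 CPM in CD127-PD-1+ against 329 to 455 CPM in CD127+PD-1- libraries. Pdcd1, which encodes PD-1, had 16.5 to 34.3 CPM in CD127-PD-1+ against 0.845 to 2.57 CPM in CD127+PD-1- libraries. The 4 CD3 complex genes summed to 632 to 1026 CPM over all libraries. The fifth sort marker, Cd8b1, was at 310 to 444 CPM in CD8 libraries. In the CD4 groups it was lower in CD4+CD127-PD-1+, with 1.75 to 5.98 CPM against 20.7 to 60.7 CPM in CD4+CD127+PD-1- libraries (log2 ratio -3.27, SE 0.51, edgeR adjusted p = 0.00249). The markers of macrophages also differed between the sorts. All 9 of 9 macrophage markers were higher in CD127-PD-1+ libraries of both lineages by edgeR's quasi-likelihood test. Their defining member C1qa had 36.4 to 94.3 CPM in CD127-PD-1+ against 0.372 to 1.08 CPM in CD127+PD-1- libraries. The summed macrophage level was 1035 to 2143 CPM in CD4+CD127-PD-1+ against 49.4 to 113 CPM in CD4+CD127+PD-1- libraries, and 1060 to 2075 CPM in CD8+CD127-PD-1+ against 58.8 to 122 CPM in CD8+CD127+PD-1- libraries. Of 5 plasmacytoid dendritic cell markers, 4 were lower in CD4+CD127-PD-1+ and 3 in CD8+CD127-PD-1+ cells. They summed to 89.4 to 227 CPM in CD4+CD127-PD-1+ against 552 to 1178 CPM in CD4+CD127+PD-1- libraries, and to 131 to 167 CPM in CD8+CD127-PD-1+ against 396 to 862 CPM in CD8+CD127+PD-1- libraries. Of 5 B and plasma cell markers, 3 were higher in CD8+CD127-PD-1+ cells (summed 64.8 to 159 CPM, against 8.73 to 36.9 CPM in CD8+CD127+PD-1- libraries) and 0 were called by edgeR in CD4 cells. Of 3 tested endothelial markers, Pecam1 and Cdh5 were lower in CD127-PD-1+ cells of both lineages, and their list summed to 27.2 to 63.9 CPM in CD127-PD-1+ against 65.3 to 154 CPM in CD127+PD-1- libraries. Of 3 natural killer cell markers, Ncr1 was higher in CD8+CD127-PD-1+ cells (7.01 to 16.6 CPM, against 2.09 to 3.26 CPM in CD8+CD127+PD-1- libraries) and edgeR called 0 in CD4 cells. Of 4 tested kidney tubule markers, edgeR called 0 between the states of either lineage, but their list summed unevenly over libraries. It had 25.9 to 49.4 CPM in CD4+CD127-PD-1+ against 45.0 to 124 CPM in CD4+CD127+PD-1- libraries. In CD8 cells it had 10.8 to 56.8 CPM in CD8+CD127-PD-1+ against 6.86 to 251 CPM in CD8+CD127+PD-1- libraries. The part of these cells in the results below was not tested. In bulk samples, fewer cells that use a V gene and less RNA per cell cannot be told apart.

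Usage is given as the share of a library's counts of the same locus. Among beta genes Trbv13-2 (Tcrb-V8.2 in the older naming) led, with a mean of the 4 group means of 13.9%. Trbv12-2 followed with 8.90%, Trbv3 with 8.52%, Trbv1 with 8.07% and Trbv2 with 8.04%, and these 5 of 21 genes held 47.5% of beta counts. The shares are not corrected for length. Divided by annotated transcript length (328 to 595 bases over the Trav and Trbv genes), Trbv13-2 was still first, with 16.2% of length-scaled usage, and was the top gene in 10 of 11 libraries, against 5 without that correction. Trbv2, with a transcript of 560 bases, moved to place 8, and Trbv15, with 370 bases, to place 3. The map of beta usage shows each gene in each library.

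**Figure D1:**
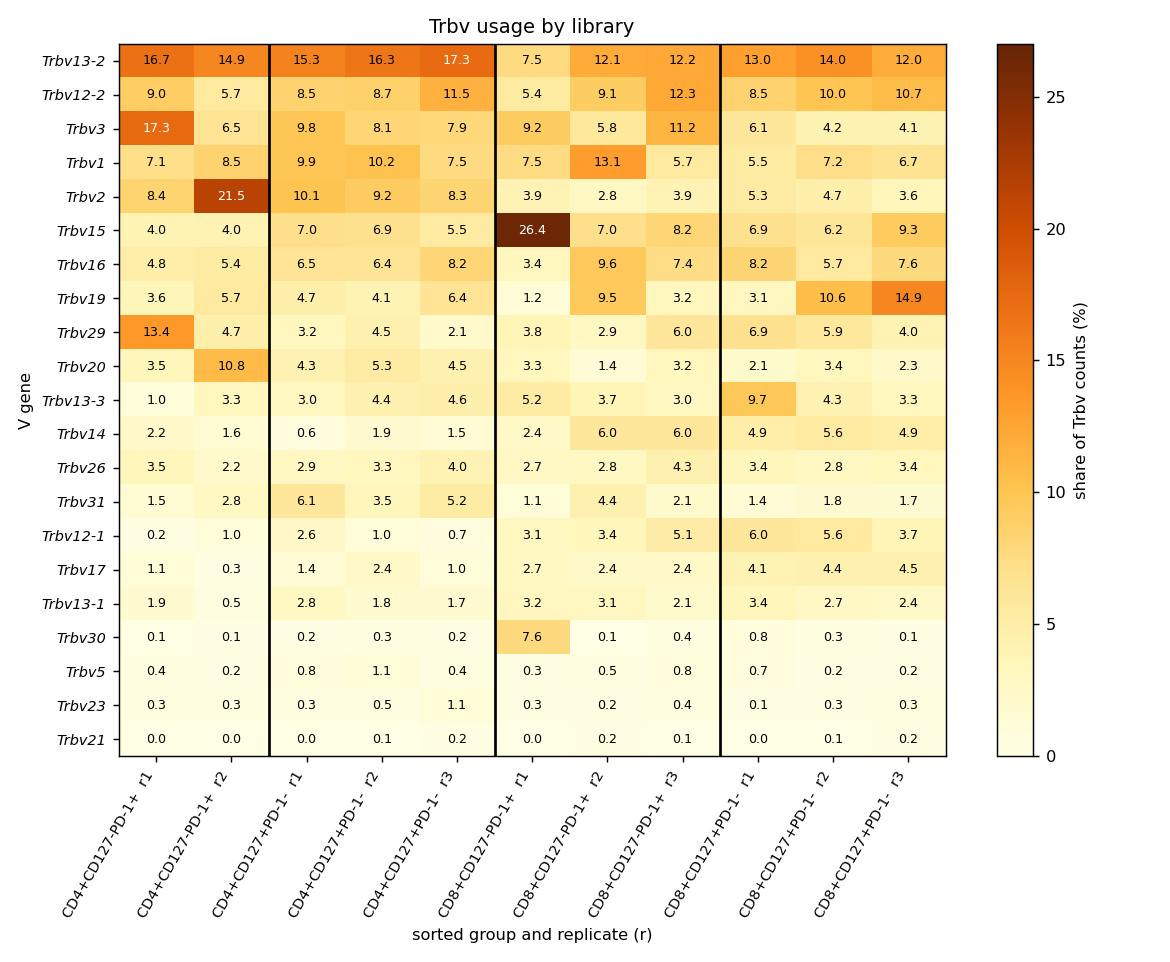
Share of Trbv counts (%) held by each of the 21 Trbv genes (rows, by mean share) in each of the 11 libraries (columns, r = replicate), with darker colour for a higher share and vertical lines between the 4 sorted groups. Trbv15 reached 26.4% in CD8+CD127-PD-1+ replicate 1 and Trbv2 reached 21.5% in CD4+CD127-PD-1+ replicate 2, while Trbv13-2 lay between 7.53% and 17.3% in all libraries.

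Trbv13-2 (ENSMUSG00000076469, chr6:41121396-41121832) held 16.7% and 14.9% in the CD4+CD127-PD-1+ libraries and 15.3%, 16.3% and 17.3% in the CD4+CD127+PD-1- libraries. It held 7.53%, 12.1% and 12.2% in the CD8+CD127-PD-1+ libraries and 13.0%, 14.0% and 11.98% in the CD8+CD127+PD-1- libraries. The 5 CD4 libraries lay above the 6 CD8 libraries, and the 2 states overlapped within each lineage. Trbv12-2 (Tcrb-V5.1) had 5.65% to 9.01% in CD4+CD127-PD-1+ and 8.47% to 11.5% in CD4+CD127+PD-1- libraries, and 5.45% to 12.3% in CD8+CD127-PD-1+ and 8.49% to 10.7% in CD8+CD127+PD-1- libraries. The rarest beta gene, Trbv21, had 11 counts over all 11 libraries and was the only one of 21 that did not pass the filter on low counts.

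Alpha usage was spread over more genes. Trav12-2 (ENSMUSG00000096656, chr14:53616315-53616914) led with a mean share of 6.79%, followed by Trav16 with 4.51%, Trav8d-2 with 4.43%, Trav13-1 with 4.18% and Trav7-5 with 3.75%. Together these 5 genes held 23.7% of alpha counts, and the same 5 genes led after division by transcript length, with Trav12-2 first at 6.13%. Trav12-2 held 5.92% and 3.13% in the CD4+CD127-PD-1+ libraries and 5.81%, 4.25% and 6.51% in the CD4+CD127+PD-1- libraries. Its shares in the CD8 groups were 9.78%, 6.05% and 10.4% in CD8+CD127-PD-1+ and 8.14%, 9.05% and 7.91% in CD8+CD127+PD-1- libraries. Both states overlapped in each lineage, and CD8+CD127-PD-1+ replicate 2 fell inside the range of the CD4 libraries. Trav13-1 had 2.85% and 5.004% in CD4+CD127-PD-1+, 4.58% to 6.43% in CD4+CD127+PD-1-, 2.45% to 3.04% in CD8+CD127-PD-1+ and 3.99% to 5.19% in CD8+CD127+PD-1- libraries.

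Single libraries carried V genes at several times their median share over all 11 libraries. A Trav or Trbv gene was listed where it held at least 5% of its locus in 1 library and at least 3 times its median share over the 11 libraries. In these 2 loci this gave 15 pairs of a gene and a library, 13 of them in CD127-PD-1+ libraries and 2 in CD127+PD-1- libraries. Both CD4+CD127-PD-1+ libraries held such genes (6 pairs), as did all 3 CD8+CD127-PD-1+ libraries (7 pairs) and 2 of the CD8+CD127+PD-1- libraries (2 pairs), against 0 pairs in the CD4+CD127+PD-1- libraries. The gamma and delta genes, with far fewer counts, are given further on. The list was chosen on these shares, so it is a description and carries no test. The median spans both lineages. Trav16, Trav16n, Trav8d-2, Trbv2 and Trbv20 on the list did not overlap between CD4 and CD8 libraries. Their listed shares were under 3 times the median of their own lineage, as were those of Trav17 and Trbv19. In CD8 libraries Trav8d-2 had a median of 5.73%, and in CD4 libraries Trbv2 had 9.18%. In an alternative chosen after the data were seen, a minimum of 2 times the median gave 28 pairs, 21 in CD127-PD-1+ and 7 in CD127+PD-1- libraries. Among the latter was Trbv31 in CD4+CD127+PD-1- replicates 1 and 3, at 6.10% and 5.24%. Just inside the rule was Trav17 at 5.004% in CD4+CD127-PD-1+ replicate 2. Just outside it were Trav19 at 4.96% in CD8+CD127+PD-1- replicate 3 and Trav7-6 at 4.85% in CD8+CD127-PD-1+ replicate 3. So was Trbv31 in CD4+CD127+PD-1- replicate 1, at 2.93 times its median. With genes summed to families, 6 pairs were left, 5 in CD127-PD-1+ and 1 in CD127+PD-1- libraries.

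Among Trav and Trbv genes, the highest share in any library was that of Trbv15 (ENSMUSG00000076472, chr6:41141188-41141658, older name Tcrb-V12). It took 26.4% of beta counts in CD8+CD127-PD-1+ replicate 1, or 519 of 1965 counts (95% Wilson interval 24.5% to 28.4%, which covers counting error only). The other CD8+CD127-PD-1+ libraries had 7.04% and 8.17%, and the CD8+CD127+PD-1- libraries 6.95%, 6.21% and 9.33%. The same library held Trbv30 at 7.63% (150 counts), a beta gene whose median over the 11 libraries was 0.184% and whose next highest share was 0.800%, in CD8+CD127+PD-1- replicate 1. On the alpha side this library had Trav16 at 16.5% (309 of 1872 counts) and Trav8d-2 at 13.6% (254 counts). These 4 genes made up 34.0% of its beta and 30.1% of its alpha counts. Whether an alpha and a beta gene came from the same cells cannot be read from bulk counts.

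CD4+CD127-PD-1+ replicate 2 had the second such profile. Trbv2 (ENSMUSG00000076462, chr6:41047340-41047995, Tcrb-V4) held 21.5% there (372 of 1733 counts, interval 19.6% to 23.5%) and 8.37% in replicate 1, against 10.1%, 9.18% and 8.28% in the CD4+CD127+PD-1- libraries. Trbv20 (Tcrb-V15) held 10.8% in the same library and 3.45% in the other CD4+CD127-PD-1+ library, against 4.32%, 5.29% and 4.51% in the CD4+CD127+PD-1- libraries. Its alpha list was Trav7-5 at 9.80%, Trav7-1 at 9.38% and Trav17 at 5.004%. Replicate 1 of the same group instead held Trav14-3 at 6.76% against 0.542% in replicate 2. Its leading beta genes were Trbv3 (Tcrb-V16) at 17.3% and Trbv29 (Tcrb-V7) at 13.4%, which were under 3 times their medians, Trbv29 only just at 2.9991 times.

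In the CD8+CD127-PD-1+ group, replicates 2 and 3 shared a high alpha gene. Trav6-1 (ENSMUSG00000076762, chr14:52638515-52638962) held 0.267%, 8.50% and 9.41% in the 3 CD8+CD127-PD-1+ libraries, against 0.833%, 0.485% and 1.72% in the CD8+CD127+PD-1- libraries. In the CD4 groups it had 1.79% and 0.167% in CD4+CD127-PD-1+ and 1.23%, 0.399% and 0.833% in CD4+CD127+PD-1- libraries. The change was thus in 2 of 3 CD8+CD127-PD-1+ libraries, and the CD8 groups overlapped. Trav16n, the near copy of Trav16 shown above, held 8.54% in replicate 3, 5.96% in replicate 2 and 2.24% in replicate 1.

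The 2 pairs outside the CD127-PD-1+ groups were Trbv19 at 14.9% in CD8+CD127+PD-1- replicate 3 (275 of 1844 counts) and Trav8d-2 at 15.2% in CD8+CD127+PD-1- replicate 1 (237 of 1560 counts). Trbv19 (Tcrb-V6) held 1.17%, 9.49% and 3.21% in the CD8+CD127-PD-1+ libraries and 3.08%, 10.6% and 14.9% in the CD8+CD127+PD-1- libraries. Trav8d-2 (ENSMUSG00000076795, chr14:53042428-53042891) held 13.6%, 7.19% and 4.27% in CD8+CD127-PD-1+ and 15.2%, 4.20% and 3.10% in CD8+CD127+PD-1- libraries. Its highest value in each state is in a library numbered 1 in the labels, which do not say whether a number marks a shared pool of mice. The plot of shares for the listed genes shows each of these values against the other libraries.

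**Figure D2:**
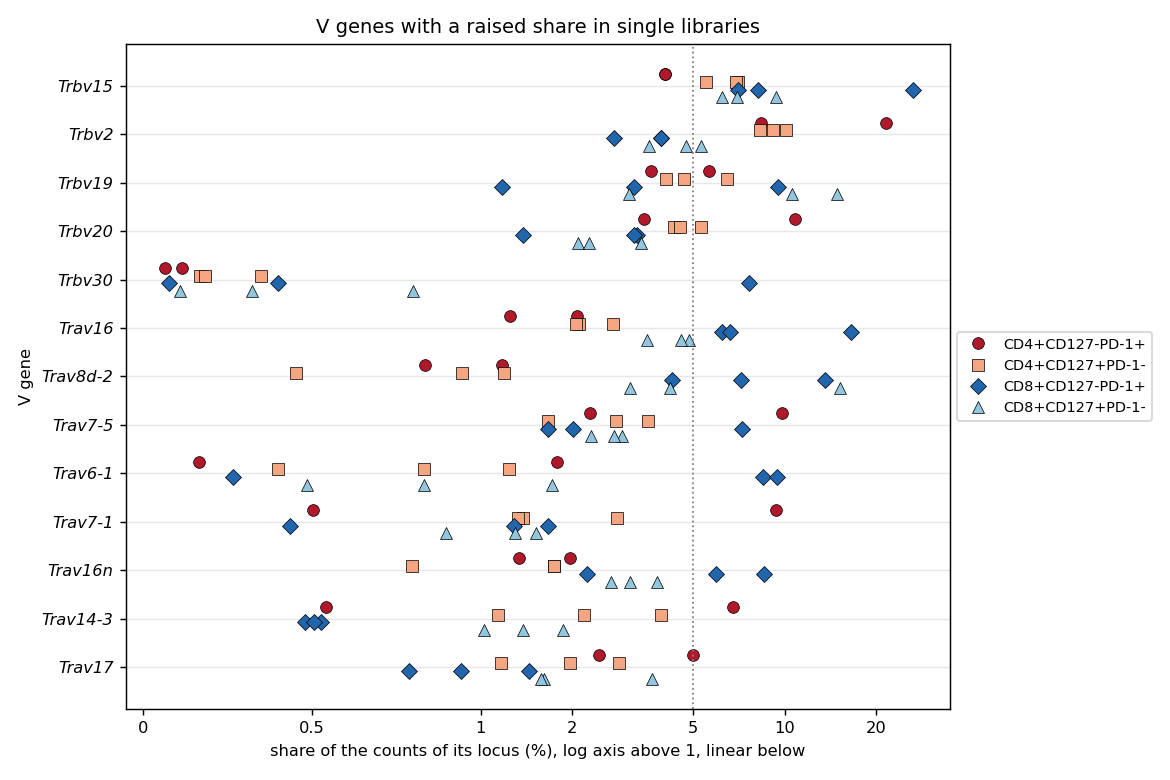
Share of the counts of its locus (%, log axis above 1, linear below) for the 13 Trav and Trbv genes that held at least 5% and at least 3 times their median share in some library, with 1 point per library, coloured by sorted group (2 to 3 libraries each). The dotted line is at 5%. Trbv30 shows a single library at 7.63% with all others at or below 0.800%, and Trav6-1 shows 2 CD8+CD127-PD-1+ libraries at 8.50% and 9.41% with all others at or below 1.79%.

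Evenness summarises how equally the genes of a locus were used. It is the Shannon entropy of the shares divided by its maximum over the 75 Trav or 21 Trbv genes with a count, so 1 would mean equal use. For Trav it was 0.883 and 0.835 in CD4+CD127-PD-1+ libraries and 0.900, 0.891 and 0.884 in CD4+CD127+PD-1- libraries. In CD8 cells it was 0.760, 0.836 and 0.810 in CD8+CD127-PD-1+ and 0.842, 0.883 and 0.893 in CD8+CD127+PD-1- libraries. Group means were 0.859 ± 0.0336 in CD4+CD127-PD-1+ (SD, n = 2) against 0.892 ± 0.00772 in CD4+CD127+PD-1- (n = 3), and 0.802 ± 0.0386 in CD8+CD127-PD-1+ against 0.873 ± 0.0270 in CD8+CD127+PD-1- libraries (SD, n = 3 each). In each lineage the CD127-PD-1+ libraries lay below the CD127+PD-1- libraries with no overlap, though by a narrow margin in CD4 cells. Expressed as the number of equally used genes with the same entropy, the 3 CD8+CD127-PD-1+ libraries stood at 26.7, 37.0 and 33.1, against 37.9, 45.2 and 47.3 in CD8+CD127+PD-1- libraries. The CD4 groups stood at 45.3 and 36.9 in CD4+CD127-PD-1+ against 48.6, 46.9 and 45.5 in CD4+CD127+PD-1- libraries.

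The mean difference in Trav evenness over both lineages (CD127-PD-1+ minus CD127+PD-1-) was -0.0513. A 2-sided exact permutation test with labels permuted within each lineage gave p = 0.005, the smallest that its 200 relabellings allow. Such tests (evenness, largest share and summed level, for both loci and both contrasts) form a family of 12, over which the Benjamini-Hochberg adjusted exact permutation p was 0.06, so the difference did not pass the threshold of 0.05. Within CD4 cells the difference was -0.0325 and within CD8 cells -0.0702, each with an exact permutation p of 0.1, the smallest that 2 against 3 or 3 against 3 libraries allow. Thinning every library to the lowest Trav count of 1141 gave -0.0521 with the same exact permutation p of 0.005.

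Beta evenness was 0.817 in both CD4+CD127-PD-1+ libraries and 0.877, 0.887 and 0.871 in the CD4+CD127+PD-1- libraries, with no overlap. In CD8 cells it was 0.846, 0.886 and 0.899 in CD8+CD127-PD-1+ and 0.908, 0.902 and 0.883 in CD8+CD127+PD-1- libraries, which overlapped. The mean difference over both lineages was -0.0407 (exact permutation p = 0.02, adjusted over the family 0.1), made up of -0.0608 in CD4 cells (exact permutation p = 0.1) and -0.0205 in CD8 cells (exact permutation p = 0.4). Between lineages, CD4 minus CD8, beta evenness differed by -0.0395 (exact permutation p = 0.025, adjusted 0.1) and alpha evenness by 0.0380 (exact permutation p = 0.08, adjusted 0.16). The lowest group mean of alpha evenness was thus that of CD8+CD127-PD-1+ libraries, which overlapped the CD4+CD127-PD-1+ libraries, and the lowest of beta evenness that of CD4+CD127-PD-1+ libraries. None of the 12 tests passed after adjustment. With genes summed to families, the state difference was -0.0373 for Trav and -0.0188 for Trbv (exact permutation p = 0.015 and p = 0.105 before adjustment). The Trav values of the CD4 groups then overlapped, with 0.808 to 0.861 in CD4+CD127-PD-1+ against 0.857 to 0.863 in CD4+CD127+PD-1- libraries. The macrophage markers described above moved with the same contrast, and their part in these values was not tested.

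**Figure D3:**
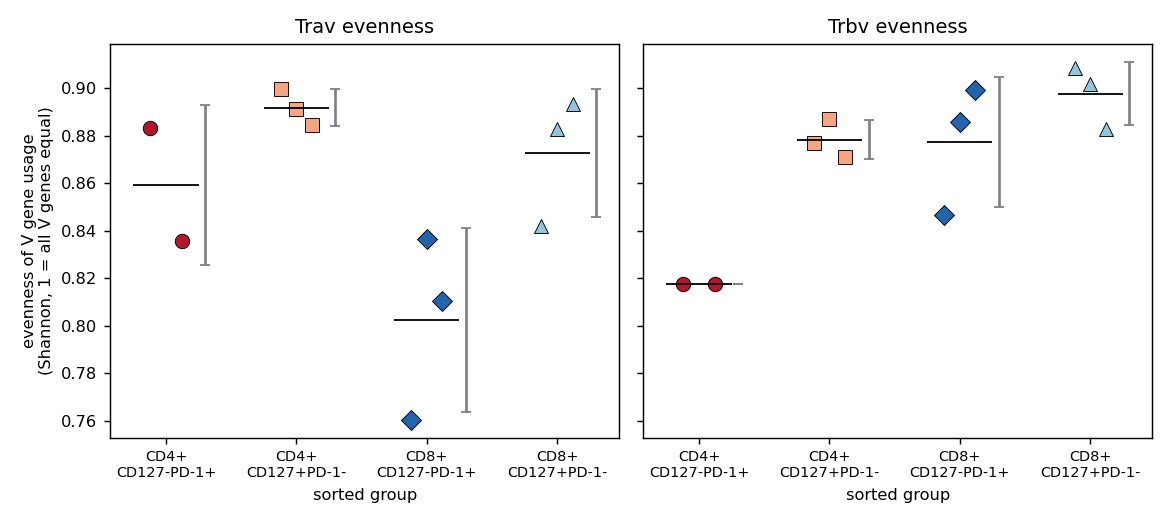
Shannon evenness of V gene usage (0 to 1, axis cut) for Trav (left) and Trbv (right) by sorted group, with 1 point per library, a horizontal line at the group mean and a bar beside it of 1 SD either way (n = 2 for CD4+CD127-PD-1+, n = 3 for the others). For Trav the CD8+CD127-PD-1+ libraries span 0.760 to 0.836 and meet the lower of the CD4+CD127-PD-1+ libraries (0.835), and for Trbv both CD4+CD127-PD-1+ libraries are lowest (0.817).

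The largest share in a library is a cruder measure. For Trbv it was 17.3% and 21.5% in CD4+CD127-PD-1+ against 15.3% to 17.3% in CD4+CD127+PD-1- libraries, and 12.3% to 26.4% in CD8+CD127-PD-1+ against 13.0% to 14.9% in CD8+CD127+PD-1- libraries. The state difference was 3.19 percentage points for Trbv (exact permutation p = 0.235, adjusted 0.368) and 1.78 points for Trav (exact permutation p = 0.28, adjusted 0.373). With genes summed to families, the Trbv state difference was -1.28 points, of the opposite sign. Between lineages, CD4 minus CD8, the largest Trav share differed by -4.22 points (exact permutation p = 0.04, adjusted 0.12). That difference also changed sign with genes summed to families. The top Trbv gene was Trbv13-2 in all 3 CD4+CD127+PD-1- libraries and in CD8+CD127+PD-1- replicates 1 and 2, and Trbv19 in CD8+CD127+PD-1- replicate 3. It was a different gene in each of the 5 CD127-PD-1+ libraries (Trbv3, Trbv2, Trbv15, Trbv1 and Trbv12-2). Trbv12-2 led CD8+CD127-PD-1+ replicate 3 by 154 counts against 152 for Trbv13-2. After division by transcript length, Trbv13-2 led in every library but CD8+CD127-PD-1+ replicate 1, where Trbv15 led.

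Libraries of the same CD127-PD-1+ group differed from each other in usage. The share of Trav usage that differed (the summed excess of the genes that are higher in one library of the pair) was 37.4% for the only pair of CD4+CD127-PD-1+ libraries, against 15.3% to 16.97% among CD4+CD127+PD-1- libraries. It was 23.4% to 36.9% among CD8+CD127-PD-1+ against 15.9% to 21.8% among CD8+CD127+PD-1- libraries. For Trbv it was 29.0% for the CD4+CD127-PD-1+ pair against 8.60% to 13.3% among CD4+CD127+PD-1- libraries, and 20.1% to 36.2% among CD8+CD127-PD-1+ against 10.999% to 19.0% among CD8+CD127+PD-1- libraries. Every pair within a CD127-PD-1+ group thus lay above every pair within the CD127+PD-1- group of the same lineage. For comparison, a CD4+CD127-PD-1+ and a CD4+CD127+PD-1- library differed by 20.8% to 33.8% for Trav, less than the 2 CD4+CD127-PD-1+ libraries did from each other. Pairs that share a library are not independent, so no test was made. Chi-square per degree of freedom for the same pairs, 1 where counting error alone is present, was 3.58 to 12.9 for Trav within the CD127-PD-1+ groups and 1.78 to 3.89 within the CD127+PD-1- groups. For Trbv it was 8.17 to 29.2 within the CD127-PD-1+ groups and 2.55 to 12.8 within the CD127+PD-1- groups, and by this measure the CD8 groups overlapped. Taken genome-wide, with genes of low count in the pair left out, it was 27.8 for the CD4+CD127-PD-1+ pair against 10.9 to 16.4 among CD4+CD127+PD-1- libraries. In CD8 cells the genome-wide values overlapped, with 12.01 to 25.8 among CD8+CD127-PD-1+ against 15.2 to 21.9 among CD8+CD127+PD-1- libraries. By this measure the CD4+CD127-PD-1+ pair was wider over all genes too. The measure rises with depth, however, and that pair was deeper. Its libraries held 14327790 and 14671212 counts, against 10572505 to 12266827 in CD4+CD127+PD-1- libraries. Whether V usage varied beyond the genome-wide spread was not tested.

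**Figure D4:**
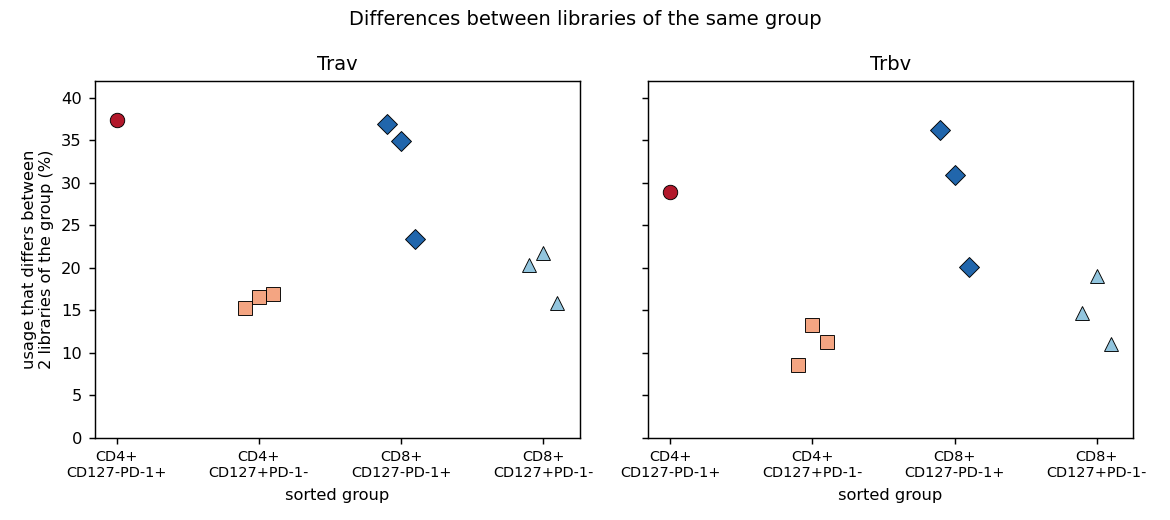
Share of V gene usage (%) that differs between 2 libraries of the same sorted group, for Trav (left) and Trbv (right), with 1 point per pair of libraries (1 pair for CD4+CD127-PD-1+, 3 pairs for each other group). Pairs within CD127-PD-1+ groups lie at 20.1% to 37.4%, and pairs within CD127+PD-1- groups at 8.60% to 21.8%.

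Usage of single genes was then compared between groups with edgeR's quasi-likelihood test across all 16365 tested genes, with V counts taken relative to the V total of their locus. A gene is called here where its Benjamini-Hochberg adjusted p is under 0.05, and all fold changes are log2 ratios of shares. Because shares of a locus sum to a fixed whole, a high share of one gene lowers those of the others in that library.

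In CD4 cells, CD127-PD-1+ against CD127+PD-1-, edgeR called 0 of 81 V genes, where 11.7% of all tested genes were called. At an unadjusted p under 0.05 there were 9 V genes, and DESeq2 called 1, Trbv29. Trbv29 (ENSMUSG00000076480, chr6:41271394-41271881) held 13.4% and 4.67% in CD4+CD127-PD-1+ against 3.22%, 4.47% and 2.12% in CD4+CD127+PD-1- libraries. Its log2 ratio was 1.44 (SE 0.46, edgeR adjusted p = 0.0657). Both CD4+CD127-PD-1+ libraries lay above the 3 others, replicate 2 by a small margin. Leaving out CD4+CD127-PD-1+ replicate 1 gave 3 calls and leaving out replicate 2 gave 1. Such a refit leaves a single CD4+CD127-PD-1+ library, which is assumed to vary like the libraries of the other groups. The median absolute log2 ratio of the 81 genes was 0.53, against 0.36 over all tested genes.

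In CD8 cells, edgeR called 6 of 81 V genes between the CD127-PD-1+ and CD127+PD-1- libraries (7.41%), where 15.7% of all tested genes were called. All 6 were Trav genes, 2 higher and 4 lower in CD8+CD127-PD-1+ cells. Trav7-6 (ENSMUSG00000096138, chr14:53716716-53717291) held 3.53%, 0.701% and 4.85% in CD8+CD127-PD-1+ against 0.513%, 0.727% and 0.688% in CD8+CD127+PD-1- libraries. Its log2 ratio was 2.24 (SE 0.59, edgeR adjusted p = 0.0248), although the groups overlapped at CD8+CD127-PD-1+ replicate 2. Trav16 (ENSMUSG00000076855, chr14:53743104-53743705) held 16.5%, 6.22% and 6.58% in CD8+CD127-PD-1+ against 3.53%, 4.85% and 4.54% in CD8+CD127+PD-1- libraries. Its log2 ratio was 1.19 (SE 0.37, adjusted p = 0.0478), with no overlap.

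Among the lower genes, Trav13n-4 (ENSMUSG00000076823, chr14:53362267-53364106) held 1.12%, 0.789% and 0.868% in CD8+CD127-PD-1+ against 2.05%, 2.10% and 2.27% in CD8+CD127+PD-1- libraries (log2 ratio -1.19, SE 0.30, adjusted p = 0.0198). Trav14-1 held 1.34%, 1.23% and 1.52% in CD8+CD127-PD-1+ against 2.37%, 3.15% and 3.10% in CD8+CD127+PD-1- libraries (-1.07, SE 0.30, adjusted p = 0.0300). Trav14n-3 held 1.12%, 0.701% and 0.941% in CD8+CD127-PD-1+ against 2.24%, 2.26% and 1.58% in CD8+CD127+PD-1- libraries (-1.11, SE 0.34, adjusted p = 0.0458). None of these 3 genes overlapped between the CD8 groups. Trav6-4 held 0.107%, 0 and 0.217% in CD8+CD127-PD-1+ against 0.705%, 1.37% and 0.619% in CD8+CD127+PD-1- libraries (-2.90, SE 0.77, adjusted p = 0.0252). Its value of 0 was 0 of 1141 counts, which allows a share of up to 0.263%, and its fold change rests on few counts.

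These CD8 calls depended on single libraries. The count was 3, 4 and 2 of 81 without CD8+CD127-PD-1+ replicates 1, 2 and 3 in turn, and 3, 1 and 3 without CD8+CD127+PD-1- replicates 1, 2 and 3. Trav16 was not called without CD8+CD127-PD-1+ replicate 1 (log2 ratio 0.57, adjusted p = 0.227) nor without 6 of the other libraries (adjusted p up to 0.142). Trav7-6 was not called without CD8+CD127-PD-1+ replicate 3 (adjusted p = 0.106), replicate 1 (0.0638) or any CD8+CD127+PD-1- library (0.0516 to 0.0828). Trav13n-4 was the least affected, not called without CD8+CD127-PD-1+ replicate 2 (0.0643) or replicate 3 (0.0712). Trav6-4 was lost without 3 libraries, Trav14-1 without 5 and Trav14n-3 without 8, with adjusted p up to 0.0875, 0.0907 and 0.134 for these genes. Taken as levels on the scale of the whole library instead of shares, 2 genes were called, Trav7-6 and Trav6-4.

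Over both lineages together, 3 of 81 V genes (3.70%) had shares in the 5 CD127-PD-1+ libraries that did not overlap those in the 6 CD127+PD-1- libraries, against 12.7% of all tested genes by level. All 3 were lower in CD127-PD-1+ libraries. Trav14n-3 had 0.701% to 1.17% (median 0.941%) in CD127-PD-1+ against 1.58% to 2.40% (median 2.18%) in CD127+PD-1- libraries. Trav6d-4 had 0.0417% to 0.289% in CD127-PD-1+ against 0.321% to 0.908% in CD127+PD-1- libraries. Its shares rest on few counts, 1 to 5 per CD127-PD-1+ library against 5 to 12 per CD127+PD-1- library. Trav13n-4 had 0.789% to 1.508% in CD127-PD-1+ against 1.514% to 2.27% in CD127+PD-1- libraries, so that its ranges all but touched. None of the 81 was higher in CD127-PD-1+ libraries without overlap. The test of whether the state change differed between CD4 and CD8 cells called 0 of 81 V genes with edgeR and 0 with DESeq2 (0.00611% of all tested genes were called with edgeR), and 13 had an unadjusted edgeR p under 0.05.

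The lineages were then compared. With shares set against each other over all libraries, 11 of 81 V genes (13.6%) did not overlap between the 5 CD4 and 6 CD8 libraries, against 4.28% of all tested genes by level. Higher in CD4 were Trav10n, Trav4-2, Trav4-4-dv10, Trbv2, Trbv13-2 and Trbv20. Lower in CD4 were Trav8d-2, Trav16, Trav16n, Trbv12-1 and Trbv14. Trav16 had 1.25% to 2.73% (median 2.07%) in CD4 against 3.53% to 16.5% (median 5.53%) in CD8 libraries. Trav4-4-dv10, a segment that the name marks as usable in alpha and delta chains, had 1.74% to 3.74% (median 3.63%) in CD4 against 0.757% to 1.37% (median 1.13%) in CD8 libraries. Trbv12-1 had 0.192% to 2.62% in CD4 against 3.05% to 6.03% in CD8 libraries, and Trbv14 had 0.593% to 2.24% in CD4 against 2.44% to 6.04% in CD8 libraries.

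Within CD127-PD-1+ cells, 4 of 81 V genes were called between CD4 and CD8 libraries (4.94%, with 2.44% of all tested genes called). Trbv2 held 8.37% and 21.5% in CD4+CD127-PD-1+ against 3.92%, 2.75% and 3.93% in CD8+CD127-PD-1+ libraries (log2 ratio 2.07, SE 0.34, edgeR adjusted p = 0.00855). Without CD4+CD127-PD-1+ replicate 2, which holds the share of 21.5%, the ratio was 1.24 and Trbv2 was not called (adjusted p = 0.103), with the spread taken from the other groups since 1 library of that group was left. Trav16 was lower in CD4, at 2.07% and 1.25% in CD4+CD127-PD-1+ against 16.5%, 6.22% and 6.58% in CD8+CD127-PD-1+ libraries (-2.58, SE 0.46, adjusted p = 0.0121), and was not called without CD4+CD127-PD-1+ replicate 2 (0.138). Trav4-4-dv10 held 3.74% and 3.67% in CD4+CD127-PD-1+ against 1.12%, 1.14% and 1.16% in CD8+CD127-PD-1+ libraries (1.69, SE 0.37, adjusted p = 0.0342). Trav14-1 held 3.85% and 3.59% in CD4+CD127-PD-1+ against 1.34%, 1.23% and 1.52% in CD8+CD127-PD-1+ libraries (1.44, SE 0.31, adjusted p = 0.0351). The last 2 genes were the tightest within groups, and both were lost without either CD4+CD127-PD-1+ library, without any CD8+CD127-PD-1+ library or without 1 further library (adjusted p 0.0516 to 0.160). The count was 1 without CD4+CD127-PD-1+ replicate 2 and 2 without CD8+CD127-PD-1+ replicate 2 or replicate 3. DESeq2 called 12, among them all 4 genes above, and edgeR fitted to only the compared groups called 0.

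Within CD127+PD-1- cells, 4 of 81 V genes were called between CD4 and CD8 libraries (4.94%, with 4.41% of all tested genes called), a share near that of all genes. Trav9-1 (ENSMUSG00000096900, chr14:53488045-53488567) held 4.14%, 5.12% and 4.47% in CD4+CD127+PD-1- against 0.641%, 1.21% and 0.757% in CD8+CD127+PD-1- libraries (2.40, SE 0.52, edgeR adjusted p = 0.0231). Trbv14 (ENSMUSG00000076471, chr6:41135145-41135616, Tcrb-V13) held 0.593%, 1.86% and 1.47% in CD4+CD127+PD-1- against 4.86%, 5.57% and 4.88% in CD8+CD127+PD-1- libraries (-1.93, SE 0.43, adjusted p = 0.0246). Trav8d-2 held 0.944%, 1.20% and 0.454% in CD4+CD127+PD-1- against 15.2%, 4.20% and 3.10% in CD8+CD127+PD-1- libraries (-3.10, SE 0.67, adjusted p = 0.0221). Without CD8+CD127+PD-1- replicate 1, the library with 15.2%, its ratio was -2.05 and it was not called (0.0673). Trav10n held 1.38%, 0.997% and 1.67% in CD4+CD127+PD-1- against 0.449%, 0.323% and 0.413% in CD8+CD127+PD-1- libraries (1.74, SE 0.44, adjusted p = 0.0488), and was not called when any 1 of the 11 libraries was left out (0.0538 to 0.175). The count was 0 without CD4+CD127+PD-1- replicate 3 or CD8+CD127+PD-1- replicate 1, 1 without CD4+CD127+PD-1- replicate 1 or 2, 2 without CD8+CD127+PD-1- replicate 2 or 3, and 7 without CD4+CD127-PD-1+ replicate 2.

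V genes of invariant receptors were read separately. Mouse invariant natural killer T cells use an alpha chain of Trav11 with few beta genes, among them Trbv13-2, Trbv29 and Trbv1, and mouse MAIT cells use Trav1. Trbv1 (Tcrb-V2) held 7.09% and 8.54% in CD4+CD127-PD-1+ against 9.91%, 10.2% and 7.54% in CD4+CD127+PD-1- libraries, and 7.48%, 13.1% and 5.69% in CD8+CD127-PD-1+ against 5.47%, 7.25% and 6.72% in CD8+CD127+PD-1- libraries, with overlap in both lineages. Trav11 and its copy Trav11d had 9 counts in all 11 libraries together, with every stretch of 75 bases of each also found in another gene. Trav1 held 1.06% and 1.58% in CD4+CD127-PD-1+ against 1.53%, 0.997% and 0.454% in CD4+CD127+PD-1- libraries. In CD8 cells it held 0.801%, 0.438% and 0.507% in CD8+CD127-PD-1+ against 1.09%, 1.05% and 1.65% in CD8+CD127+PD-1- libraries, and it was called in none of the 5 comparisons by edgeR. Zbtb16, which encodes the transcription factor PLZF of innate-like T cells, was higher in CD127-PD-1+ cells of both lineages. It had 27.6 and 14.5 CPM in CD4+CD127-PD-1+ against 6.96, 10.1 and 3.35 CPM in CD4+CD127+PD-1- libraries (log2 ratio of levels 1.62, SE 0.46, edgeR adjusted p = 0.0428). The CD8 libraries had 3.51, 6.42 and 5.73 CPM in CD8+CD127-PD-1+ against 0.741, 0.220 and 0.970 CPM in CD8+CD127+PD-1- libraries (2.99, SE 0.53, adjusted p = 0.00319). Of the other genes on the innate-like list, Klrb1c was called in neither lineage by edgeR (log2 ratio -0.90, adjusted p = 0.333 in CD4 cells, and 0.65, adjusted p = 0.396 in CD8 cells), and Sox13 did not pass the filter on low counts.

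Gamma chain V counts were uneven between libraries. Trgv2 (ENSMUSG00000076754, chr13:19336573-19337167) made up 62.5% to 86.1% of gamma V counts. Its level was 17.6 and 6.68 CPM in CD4+CD127-PD-1+ against 5.14, 4.76 and 0.930 CPM in CD4+CD127+PD-1- libraries. Among CD8 libraries the level was 21.6, 6.95 and 4.39 CPM in CD8+CD127-PD-1+ against 4.71, 2.05 and 6.58 CPM in CD8+CD127+PD-1- libraries. The CD4 groups did not overlap and the CD8 groups did, and neither level difference was called (edgeR adjusted p = 0.169 for a log2 ratio of 1.73, SE 0.75, between CD4 groups, and 0.230 for 1.30, SE 0.68, between CD8 groups). The constant gene Tcrg-C2 was called in CD4 cells, with 59.3 and 24.3 CPM in CD4+CD127-PD-1+ against 14.8, 10.7 and 4.84 CPM in CD4+CD127+PD-1- libraries (2.04, SE 0.57, adjusted p = 0.0394). The delta constant gene Trdc stayed between 0.649 and 4.31 CPM in all libraries and was not called. Trdv1 held 329 of the 421 delta V counts, and Trdv2-2 held 67, of which 18 were in CD4+CD127+PD-1- replicate 2. Tcrg-V1 had 121 counts over the 11 libraries and Tcrg-V6 had 58, of which 19 were in CD8+CD127-PD-1+ replicate 2 and 23 in CD8+CD127+PD-1- replicate 3. Tcrg-V7 had 52 counts in CD8+CD127-PD-1+ replicate 1 and 10 or fewer in every other library. By the rule of 5% and 3 times the median, the gamma and delta loci held 10 pairs of a gene and a library, most of them on 1 to 6 counts. With 10 or more counts there were 3. They were Tcrg-V7 at 14.0% of gamma counts in CD8+CD127-PD-1+ replicate 1 (Wilson interval 10.9% to 17.9%), and Tcrg-V6 at 14.5% in CD8+CD127-PD-1+ replicate 2 (9.49% to 21.5%) and 17.04% in CD8+CD127+PD-1- replicate 3 (11.6% to 24.3%). The 2 pairs in CD4+CD127+PD-1- libraries rested on 3 counts of Trdv4 and 1 count of Tcrg-V6.

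The summed level of a locus was compared as a check on how much receptor RNA the sorts held. The sum of Trav genes averaged 138 ± 24.9 CPM for CD4+CD127-PD-1+ (SD, n = 2) against 118 ± 4.71 CPM for CD4+CD127+PD-1- libraries (SD, n = 3), and 108 ± 26.2 CPM for CD8+CD127-PD-1+ against 98.8 ± 7.33 CPM for CD8+CD127+PD-1- libraries (SD, n = 3 each). That of Trbv genes averaged 109 ± 5.11 CPM for CD4+CD127-PD-1+ against 110 ± 18.9 CPM for CD4+CD127+PD-1- libraries, and 111 ± 28.0 CPM for CD8+CD127-PD-1+ against 117 ± 9.65 CPM for CD8+CD127+PD-1- libraries. The state difference on the log2 scale was 0.16 for Trav (exact permutation p = 0.245, adjusted 0.368) and -0.05 for Trbv (exact permutation p = 0.705, adjusted 0.769).

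Other receptor genes were read from fixed lists. Of the 7 tested constant genes, 1 was higher (Tcrg-C2) and 0 lower in CD4+CD127-PD-1+ cells, and edgeR called 0 in CD8 cells and in the comparisons that involve lineage. The list median was a log2 ratio of 0.45 in CD4 cells and 0.18 in CD8 cells, against 0.02 and 0.01 over all tested genes. Of the 4 CD3 complex genes, which carry the receptor's signal, edgeR called 0 in any of the 5 comparisons. Trac, the alpha constant gene, had 429 and 476 CPM in CD4+CD127-PD-1+ against 324, 327 and 346 CPM in CD4+CD127+PD-1- libraries, and was not called (0.45, SE 0.17, adjusted p = 0.118).

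Of the 4 rearrangement and pre-receptor genes, Rag1, Rag2 and Ptcra did not pass the filter on low counts, and Dntt fell in both lineages. Dntt encodes terminal transferase, which adds untemplated bases to the joints during rearrangement. It had 1.75 and 0.260 CPM in CD4+CD127-PD-1+ against 23.9, 13.0 and 14.7 CPM in CD4+CD127+PD-1- libraries (-4.09, SE 0.83, edgeR adjusted p = 0.00946). The CD8 libraries had 1.39, 0.821 and 0 CPM in CD8+CD127-PD-1+ against 20.5, 8.50 and 12.7 CPM in CD8+CD127+PD-1- libraries (-4.22, SE 0.73, adjusted p = 0.00268). The plasmacytoid dendritic cell markers given above differed in the same direction, and their part in the Dntt result was not tested.

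The alpha locus of the mouse holds repeated blocks of near-identical V genes, marked d and n in gene names. The 47 genes outside these copies held 76.6% of Trav counts with 1 of them at 0 counts. The 35 d copies held 10.8% with 17 at 0, and the 28 n copies held 12.6% with 17 at 0. Every stretch of 75 bases, the read length, was compared between transcripts of GENCODE M21. For 32 of the 35 Trav genes without a count, all stretches also occur in another gene, and the lowest share among the 35 was 80.8%. Among the 46 Trav genes with 100 or more counts the median was 21.4%, and none was wholly shared. Over the 110 Trav genes, Spearman's rho between shared stretches and counts was -0.80, a description over genes that are copies of each other. For 20 of 21 Trbv genes no stretch was shared. How reads that match several genes were counted is not given in the sources used here, so counts within copy pairs such as Trav16 and Trav16n (32.1% and 45.0% of stretches shared) are uncertain. Trbv15, Trbv30, Trav7-5, Trav7-1 and Trav17 share no stretch with another gene, Trav6-1 shares 1.89% and Trav8d-2 9.51%, while Trav14-3 shares 43.9%. Among other called genes, Trav13n-4, Trav14-1, Trbv2 and Trbv14 share none and Trav6-4 shares 16.1%. Trav7-6 shares 29.0%, Trav4-4-dv10 34.8%, Trav14n-3 38.3%, Trav9-1 41.0% and Trav10n 48.3%, so their counts are uncertain too.

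**Figure D5:**
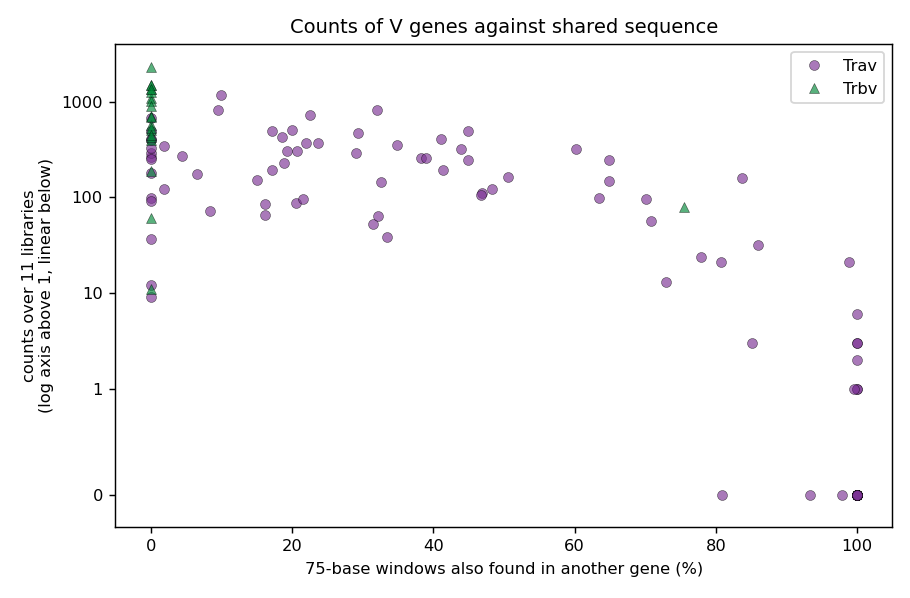
Counts summed over the 11 libraries (log axis above 1, linear below) against the share of 75-base stretches of the transcript that also occur in another gene (%), with 1 point per V gene (110 Trav, 21 Trbv). The Trav genes at 0 counts lie at 80.8% or above, and all Trbv genes but 1 lie at 0%.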

How the data were processed

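Kidney T cells of 4 sorted groups were sequenced in 11 libraries, from 2 ng of total RNA by single primer isothermal amplification and as single 75-base reads, per the labels' protocols. The deposited table holds raw read counts per gene and was used as the authors deposited it. STAR, featureCounts and GRCm38 are named in the submitters' processing notes. Of versions, annotation release, strand setting and the treatment of reads matching several genes, each is "not given in the sources used here". The table has 1 column that matches no label, and its values stayed out. The labels name no molecular identifiers, so intervals cover counting error only.

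Genes were kept with filterByExpr (16365 genes) and fitted with edgeR 4.0.16 in R 4.3.3, with one mean per group over all 11 libraries and the quasi-likelihood F test. Offsets were the V total of the locus for V genes and the TMM-scaled library size for all others. P-values were adjusted by the Benjamini-Hochberg method over all tested genes. CPM use the TMM-scaled library size, and standard errors were taken as the log2 ratio over the root of F. The tests were tested on simulated data. Evenness, largest share and summed level were compared by exact permutation tests (scipy 1.17.1), and Wilson intervals are at 95%. DESeq2 1.42.0, other scalings, no filter, robust dispersions, only the compared groups, replicate blocks and leaving out each library were the alternatives.

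Named genes are the 5 most used Trav and Trbv genes, up to 5 called V genes per direction and comparison, genes with at least 5% of a locus and 3 times their median in a library, genes of invariant receptors, gamma and delta genes with at least 10 counts in a library, and the listed constant, CD3, rearrangement and sort marker genes. Trav4-2, Trav6d-4, Trav19, Trbv12-1, Trbv21, Trbv31 and Trdv4 were named after their values were seen. Trav14d-1 and Trav14n-1 were named for their identical sequences. The members and lists were chosen with earlier results of these data known. Coordinates and sequences are from GENCODE M21 (GRCm38), in which all 142 V genes were found, and older names from RefSeq.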

Additional observations from a re-analysis of the deposited data

How the results depend on the processing

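The Trav and Trbv evenness differences between states stayed below 0 under Simpson evenness, thinning, a minimum of 10 counts, summing to families (-0.0373 and -0.0188) or leaving out any 1 library. Leaving out 1 library gave -0.0632 to -0.0395 for Trav and -0.0462 to -0.0330 for Trbv. Counts of V genes called depended on the setting, and the cause was not tested. In CD4 cells the state comparison gave 1 call with DESeq2, 1 without the filter and 1 with the replicate block by description number, and 0 to 3 with 1 library left out. In CD8 cells it gave 2 with the library size as scale and 1 with that block, and 1 to 8 with 1 library left out. CD4 against CD8 in CD127-PD-1+ cells gave 2 scaled to constant genes, 12 with DESeq2, 14 without the filter, 0 from only the compared groups, and 1 to 6 with 1 library left out. In CD127+PD-1- cells it gave 7 with DESeq2, 7 without the filter, and 0 to 7 with 1 library left out. The state by lineage test gave 0 in all settings run.

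The labels do not say that a replicate number marks a shared pool, and the correlations did not reach 0.1 in every pair, so no pairing was assumed. Same-numbered libraries correlated over 0.1 in 7 of 15 pairs by title number (-0.21 to 0.32) and in 10 of 12 by description number (0.00109 to 0.33), and 6 of 11 and 8 of 10 libraries correlated best with one of their own number, a hint from the data and not the design. The title number block gave 0, 6, 3, 3 and 0 calls in the 5 comparisons, and the description number block 1, 1, 3, 4 and 0. With genes summed to families, the lineage difference in the largest Trav share was 1.77, against -4.22 by gene. The state difference in the largest Trbv share was -1.28, against 3.19 by gene, so both changed sign. With 1 library left out, the summed Trbv level differed by -0.15 to 0.0168 between states and by -0.12 to 0.0501 between lineages. No single call reversed under any setting run, and in 105 refits a single call no longer passed the threshold, 8 of these under the description number block. With 1141 to 2398 Trav counts per library, genes under about 1% rest on few counts.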
